A study of Sus scrofa with 6 samples.

Results

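Genes of autophagy and of mitophagy, its mitochondrial branch, were examined in longissimus dorsi, the long muscle beside the spine. Of 10 genes listed by symbol, 9 were matched to a row among the 30476 Ensembl pig genes counted, and all 9 had enough reads to be tested. The matched genes were *ULK1*, *BECN1*, *ATG5*, *ATG7*, *MAP1LC3B*, *GABARAPL1*, *SQSTM1*, *BNIP3L* and *TFEB*. *BNIP3* had no identifier in the gene name table used here and was not analysed. RNA-seq had been made from 3 UCP1 KI pigs and 3 WT pigs, all 6 months old, with 1 library per pig. In the UCP1 KI pigs, a *UCP1* gene placed by CRISPR/Cas9 is expressed in adipocytes, whereas pigs otherwise lack a working *UCP1*, and skeletal muscle is not a tissue in which the transgene is driven. The sources give no breed, sex or litter. *UCP1* had no identifier in the gene name table either, and the paper reports that RNA-seq found no *UCP1* mRNA in muscle of either group. The genotype was thus not checked against counts of *UCP1*.

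Autophagy encloses proteins and organelles in a double membrane, the autophagosome, and delivers them to the lysosome for breakdown. The ULK1 kinase complex starts the process, the lipid kinase complex built around BECN1 marks the membrane, and ATG7 and ATG5 belong to the enzymes that attach ATG8 proteins such as MAP1LC3B and GABARAPL1 to it. Cargo receptors such as SQSTM1 bind the ATG8 proteins and the cargo at once, BNIP3 and BNIP3L do the same from the mitochondrial surface, and TFEB switches on genes of lysosomes and autophagy. In skeletal muscle this system clears mitochondria and proteins during fasting, disuse and exercise, beside the proteasome.

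The libraries held between 30220951 and 35066624 counts on genes, and levels are given as CPM, the counts scaled to 1000000 per library after adjusting the totals by TMM, a method that sets most genes equal between libraries. The TMM factor was lowest at 0.781 (WT replicate 2) and highest at 1.18 (UCP1 KI replicate 2), and scaling by library size only raised the median over all genes by 0.25 on the log2 scale. Of 10 muscle fibre markers listed, 5 were matched. Their summed level was 58439 to 92162 CPM in UCP1 KI pigs and 73825 to 99756 CPM in WT pigs, with overlap. The summed level of 5 fibroblast markers was 199 to 367 CPM in UCP1 KI pigs and 578 to 927 CPM in WT pigs, and that of the 4 red blood cell markers found was 11.4 to 76.0 CPM and 105 to 180 CPM, without overlap in either case, and 3 of the 5 fibroblast markers were called as lower by the limits given next. Adipocyte markers summed to 42.8 to 87.3 CPM in UCP1 KI pigs and 46.0 to 282 CPM in WT pigs. Leukocyte markers (20.5 to 61.3 CPM against 20.8 to 39.3 CPM) and endothelial markers (273 to 508 CPM against 251 to 457 CPM) overlapped between the groups in their sums, and 1 marker of each was called as higher, the endothelial *TEK* (log2 fold change 1.20, with no overlap) and the leukocyte *CD3E* (1.84, with overlap). The part of these cell types in the differences described here was not tested. In a piece of whole muscle, fewer cells of a type and less RNA per cell cannot be told apart.

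Two-sided quasi-likelihood tests in edgeR were used, a gene was called different when its absolute log2 fold change exceeded 0.5 with p below 0.05 before adjustment, and log2 fold changes are above 0 where the UCP1 KI pigs were higher. By these limits 1 of the 9 genes, *GABARAPL1*, was called, and it was higher in UCP1 KI pigs. Among all 13402 genes tested 8.19% were called, 3.84% as higher and 4.34% as lower. No gene of the table passed after Benjamini-Hochberg adjustment in edgeR (0 genes with an adjusted p under 0.05, against 1100 with an unadjusted p under 0.05), whereas DESeq2 gave 127 such genes, with none among the 9, where the lowest adjusted p was 0.119. Groups did not overlap for 2 of the 9 genes, *GABARAPL1* and *MAP1LC3B*, beside 15.3% of all genes tested (7.59% with the UCP1 KI pigs higher). The log2 fold change was above 0 for 5 of the 9 genes and below 0 for 4, with a median of 0.02 beside -0.02 over all genes tested. With library size only, 9 of the 9 were above 0 and 3 were called, with a median of 0.34 beside 0.24 over all genes tested, of which 8.39% were called under this scaling, 929 genes as higher and 195 as lower.

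**Figure D1:**
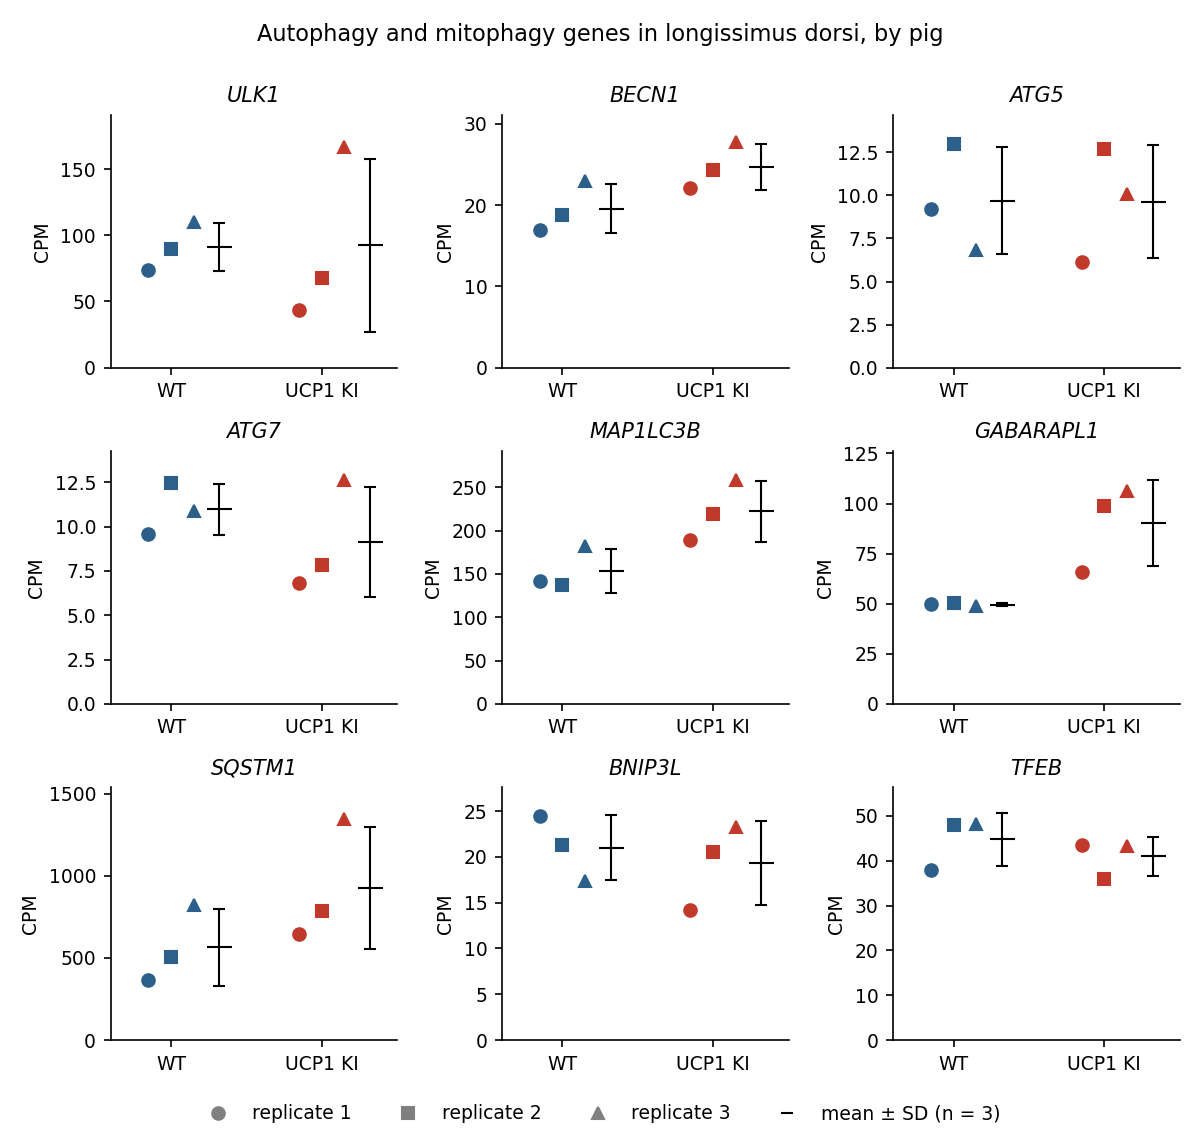
Level of the 9 genes in CPM (vertical axis, from 0) in each WT pig (blue) and UCP1 KI pig (red), with the mean and SD of the 3 pigs in black and the replicate number as the shape. *GABARAPL1* and *MAP1LC3B* show no overlap, with the UCP1 KI pigs on top, and UCP1 KI replicate 3 is the top pig for *ULK1* at 166.7 CPM and for *SQSTM1* at 1349 CPM.

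Among the genes of ATG8 proteins, *GABARAPL1* was called and *MAP1LC3B* was not. *GABARAPL1* (ENSSSCG00000000645), which encodes an ATG8 protein of the GABARAP type, lies on chromosome 5 between 61758127 and 61767427 in the RefSeq annotation of Sscrofa11.1. It was measured at 66.0, 98.7 and 106 CPM in UCP1 KI replicates 1 to 3 and at 49.9, 50.1 and 48.7 CPM in WT replicates 1 to 3. The WT pigs were nearly equal and all below the lowest UCP1 KI pig, while UCP1 KI replicate 1 stood closer to the WT pigs than to the other UCP1 KI pigs. The means were 90.3 ± 21.3 CPM (SD, n = 3) and 49.6 ± 0.766 CPM (SD, n = 3), which is a 1.82-fold difference. The log2 fold change was 0.86 (standard error 0.25, 95% interval 0.28 to 1.44), and edgeR gave an adjusted p of 0.583 by Benjamini-Hochberg (unadjusted p = 0.00910). A two-sided exact permutation test gave p = 0.1, which is the lowest value possible with 3 pigs in each group. *GABARAPL1* was called with each pig left out in turn, where its log2 fold change lay between 0.73 and 1.05, and in all 12 alternative settings, where its adjusted p lay between 0.119 and 0.930.

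The highest WT value of *GABARAPL1* was 1.03 times the lowest. The median of this ratio was 1.73 over the 12946 tested genes with counts in every pig, and 0.201% of those genes had a smaller one. In the UCP1 KI pigs the ratio was 1.61 for *GABARAPL1*, beside a median of 1.60. The difference between the groups was therefore set against a WT group with very little spread and a UCP1 KI group with a usual one.

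*MAP1LC3B* (ENSSSCG00000002655, chromosome 6, 1919879 to 1941069), which encodes LC3B, the ATG8 protein most used as a mark of autophagosomes, was at 189, 219.6 and 258.9 CPM in UCP1 KI replicates 1 to 3. In WT replicates 1 to 3 it was at 141, 137 and 182.7 CPM. Every UCP1 KI pig was above every WT pig, but UCP1 KI replicate 1 and WT replicate 3 lay close together. The means were 222.5 ± 35.1 CPM (SD, n = 3) and 153.8 ± 25.2 CPM (SD, n = 3). The log2 fold change of 0.53 (standard error 0.25, 95% interval -0.05 to 1.12) missed the p limit (edgeR, unadjusted p = 0.0678, adjusted p = 0.622). *MAP1LC3B* was called without WT replicate 3 (0.68, unadjusted p = 0.0417), with library size only (0.80) and by DESeq2 (0.53, unadjusted p = 0.0474), and not with any other pig left out.

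Among the other ATG8 genes, *GABARAP* was called as higher and *GABARAPL2* and *MAP1LC3A* were not. *GABARAP* had 38, 94 and 76 counts in the UCP1 KI libraries against 28, 16 and 36 counts in the WT libraries, so that the difference of 1.20 on the log2 scale (standard error 0.48, unadjusted p = 0.0373 from edgeR) rested on few reads. It was not called without UCP1 KI replicate 2 or 3 or without WT replicate 1 or 2. How the counting treated reads that match several places of the genome is not given in the sources used here. *GABARAPL2* was at 77.7, 92.8 and 93.3 CPM against 62.5, 55.6 and 82.5 CPM (UCP1 KI against WT), which gave a log2 fold change of 0.40 with overlapping groups. *MAP1LC3A*, which encodes LC3A, was at 209, 144 and 220 CPM against 146, 204 and 240 CPM, giving a log2 fold change of -0.04. *MAP1LC3C* was not matched.

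Ratios between related genes within a pig do not depend on how libraries are scaled. Since they depend on transcript length, they were compared between pigs only. The log2 ratio of *MAP1LC3B* to *MAP1LC3A* was -0.15, 0.61 and 0.23 in UCP1 KI replicates 1 to 3 and -0.04, -0.58 and -0.39 in WT replicates 1 to 3. The group means differed by 0.57, less firmly than the levels of *MAP1LC3B* itself, since UCP1 KI replicate 1 lay below WT replicate 1 (two-sided exact permutation test, p = 0.2). The log2 ratio of *GABARAPL1* to *GABARAPL2* was -0.24, 0.09 and 0.18 against -0.32, -0.15 and -0.76, a difference of 0.42 with overlapping groups (exact permutation test, p = 0.2). Across the 5 ratios that could be formed the groups overlapped each time.

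**Figure D2:**
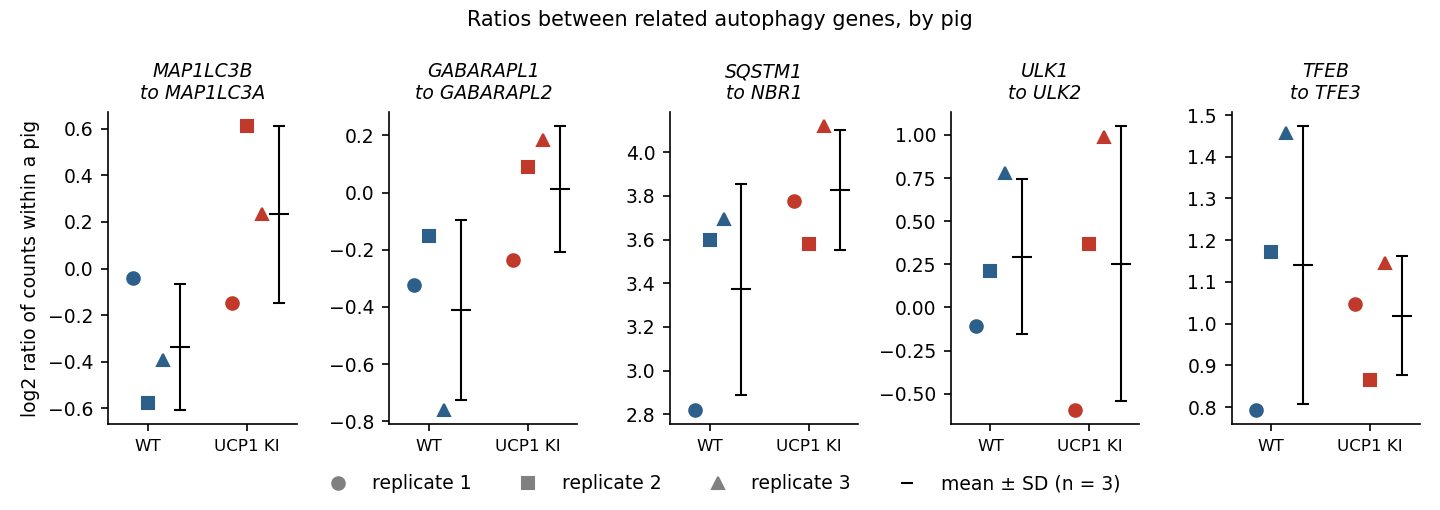
Log2 ratio of the counts of related autophagy genes within each pig (vertical axis, not starting at 0 and different in each panel), in WT pigs (blue) and UCP1 KI pigs (red), with mean and SD of 3 pigs in black. The groups overlap in every panel, and the differences of the means range from -0.12 for *TFEB* to *TFE3* to 0.57 for *MAP1LC3B* to *MAP1LC3A*.

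*SQSTM1* (ENSSSCG00000014016), the gene of the cargo receptor p62, lies on chromosome 2 between 78752768 and 78763998. It was measured at 645, 787 and 1349 CPM in UCP1 KI replicates 1 to 3 and at 367, 507 and 823.5 CPM in WT replicates 1 to 3. Replicate 3 was the highest pig in both groups, and WT replicate 3 was above UCP1 KI replicates 1 and 2. The means were 927 ± 372 CPM (SD, n = 3) and 566 ± 234 CPM (SD, n = 3). The log2 fold change of 0.71 (standard error 0.42, 95% interval -0.26 to 1.69) was not called (edgeR, unadjusted p = 0.130, adjusted p = 0.679). Leaving out UCP1 KI replicate 3 gave 0.34, and leaving out WT replicate 3 gave 1.09, where it was called (unadjusted p = 0.0429). With library size only it was also called (1.02, unadjusted p = 0.0425). The span of *SQSTM1* in RefSeq overlaps the end of *MRNIP*, whose reads were not separated here.

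The log2 ratio of *SQSTM1* to *NBR1*, the gene of a related cargo receptor, was 3.78, 3.58 and 4.12 in UCP1 KI replicates 1 to 3 and 2.82, 3.60 and 3.70 in WT replicates 1 to 3. WT replicate 1 was the lowest pig and the other WT pigs lay above UCP1 KI replicate 2, with a difference of 0.45 between the means (two-sided exact permutation test, p = 0.3). *NBR1* itself was at 47.1, 65.8 and 77.6 CPM against 52.0, 41.8 and 63.5 CPM, with a log2 fold change of 0.27.

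Among the 10 cargo receptors listed, 9 had a log2 fold change above 0 and 2 were called, both higher, where 6526 of the 13402 genes tested were above 0 and 8.19% were called. With library size only, 4 of the list were called, with a median of 0.81 beside 0.24 over all genes. *CALCOCO2*, the gene of the receptor NDP52, was at 87.7, 133 and 104 CPM in the UCP1 KI group and 43.4, 56.9 and 63.2 CPM in the WT group. All UCP1 KI pigs were above all WT pigs, with means of 108 ± 23.2 CPM and 54.5 ± 10.1 CPM (SD, n = 3 each). With a log2 fold change of 0.99 (standard error 0.27; edgeR, unadjusted p = 0.00611, adjusted p = 0.583), it was called with each pig left out. *TAX1BP1*, another receptor of ubiquitinated cargo, was at 21.6, 29.3 and 27.4 CPM against 19.4, 16.5 and 14.7 CPM. The difference of 0.63 on the log2 scale (standard error 0.24, unadjusted p = 0.0300 from edgeR) was not called without UCP1 KI replicate 2 or 3 or without WT replicate 2 or 3. At the other end, *WDFY3* had a log2 fold change of -0.31 and was not called. The median of the list was 0.52.

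*ULK1* (ENSSSCG00000009742, chromosome 14, 23423693 to 23448130), the kinase gene of the initiation complex, varied more between UCP1 KI pigs than any other of the 9 genes. It was at 43.3, 67.7 and 166.7 CPM in UCP1 KI replicates 1 to 3 and at 74.0, 89.9 and 109.9 CPM in WT replicates 1 to 3. UCP1 KI replicates 1 and 2 lay below every WT pig and UCP1 KI replicate 3 lay above every one. The highest UCP1 KI pig had 3.85 times the level of the lowest, a ratio larger than that of 89.7% of the genes with counts in every pig. The means were 92.6 ± 65.3 CPM (SD, n = 3) and 91.3 ± 18.0 CPM (SD, n = 3), and the log2 fold change was 0.02 (standard error 0.48, 95% interval -1.09 to 1.13). Leaving out UCP1 KI replicate 3 turned it to -0.72 (edgeR, unadjusted p = 0.0591), and leaving out WT replicate 1 turned it to -0.13. The near equality of the means was thus set by a single pig, and the interval leaves room for a 2-fold difference either way.

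The log2 ratio of *ULK1* to *ULK2* was -0.60, 0.37 and 0.99 for UCP1 KI and -0.11, 0.21 and 0.78 for WT (exact permutation test, p = 1). *ULK2*, the gene of the second kinase of this kind, was at 65.5, 52.4 and 83.9 CPM against 79.7, 77.6 and 64.1 CPM. Of the 5 genes of the complex 0 were called in edgeR at the unadjusted limit, and the log2 fold changes ran from -0.13 for *ULK2* to 0.38 for *ATG13*, a scaffold of the complex.

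*BECN1* (ENSSSCG00000017386, chromosome 12, 20041914 to 20054249), the gene of the Beclin 1 subunit of the lipid kinase complex, was at 22.1, 24.3 and 27.7 CPM in UCP1 KI replicates 1 to 3 and at 17.0, 18.8 and 23.0 CPM in WT replicates 1 to 3. WT replicate 3 was above UCP1 KI replicate 1 and the other WT pigs were below all UCP1 KI pigs. The difference was 0.34 on the log2 scale (standard error 0.23, 95% interval -0.19 to 0.87, unadjusted p = 0.180 from edgeR) and stayed between 0.24 and 0.47 with each pig left out. *UVRAG*, a subunit that joins the same kinase on endosomes and autophagosomes, was the gene of the 8 in this group that was called. It was at 9.28, 10.9 and 11.8 CPM against 7.42, 4.53 and 7.04 CPM, with no overlap, and its log2 fold change was 0.75 (standard error 0.28, unadjusted p = 0.0293 from edgeR). It was not called without UCP1 KI replicate 2 or 3 or without WT replicate 2. The lowest log2 fold change of the group was -0.24 for *RUBCN*, an inhibitor of the complex, and its sign was not stable. It ran from -0.95 to 0.91 with each pig left out and was 0.21 with library size only.

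The conjugation enzymes *ATG5* (ENSSSCG00000004370, chromosome 1, 72343950 to 72520402) and *ATG7* (ENSSSCG00000011575, chromosome 13, 67301756 to 67699141) were both measured at low levels. *ATG5* was at 6.14, 12.7 and 10.1 CPM in UCP1 KI replicates 1 to 3 and at 9.23, 13.001 and 6.84 CPM in WT replicates 1 to 3, so that the groups covered nearly the same range. Its log2 fold change was -0.01 (standard error 0.36, 95% interval -0.85 to 0.83), and 0.24 without UCP1 KI replicate 1. *ATG7* was at 6.82, 7.85 and 12.6 CPM against 9.57, 12.5 and 10.9 CPM, with UCP1 KI replicates 1 and 2 below all WT pigs and UCP1 KI replicate 3 above them. Its log2 fold change was -0.27 (standard error 0.30, 95% interval -0.97 to 0.44), and -0.58 without UCP1 KI replicate 3. For both genes a difference was not detectable with this spread, and with library size only the signs turned, to 0.31 for *ATG5* and 0.03 for *ATG7*. In RefSeq the span of *ATG7* overlaps *HRH1*, *VGLL4* and a pseudogene, and that of *ATG5* overlaps an uncharacterized gene. *ATG12*, whose protein is joined to ATG5 in a reaction that needs ATG7, was the gene called among the 10 conjugation genes tested. It was at 19.2, 26.2 and 23.9 CPM against 14.9, 14.1 and 17.8 CPM, or 0.57 higher on the log2 scale (standard error 0.23, unadjusted p = 0.0434 from edgeR), and was called without UCP1 KI replicate 1 or WT replicate 3, with no other pig left out, and not when all genes with a count were tested (unadjusted p = 0.0513).

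*BNIP3L* (ENSSSCG00000009658, chromosome 14, 10318688 to 10345689), the gene of the mitophagy receptor NIX, was at 14.2, 20.5 and 23.3 CPM in UCP1 KI replicates 1 to 3 and at 24.4, 21.3 and 17.3 CPM in WT replicates 1 to 3. Replicate 3 was the highest of the UCP1 KI pigs and the lowest of the WT pigs. On the log2 scale the difference was -0.12 (standard error 0.27, 95% interval -0.75 to 0.51, unadjusted p = 0.668 from edgeR), and it turned to 0.15 with library size only and to 0.06 without UCP1 KI replicate 1. NIX also clears mitochondria from maturing red blood cells. The summed red blood cell markers given above were lower in every UCP1 KI pig, and their part in the level of *BNIP3L* was not tested. Most of that sum was *HBB*, a haemoglobin chain, while *AHSP* did not overlap at 0 to 8 counts against 16 to 19 counts, *ALAS2* overlapped between the groups, *SLC4A1* had at most 3 counts in a pig, and 0 of the markers were called in edgeR at the unadjusted limits. *PINK1*, the kinase gene of the ubiquitin route of mitophagy, was the gene called among the 12 mitophagy genes tested. It was at 373, 445 and 520 CPM in the UCP1 KI group and 263, 151 and 313 CPM in the WT group, with no overlap and means of 446 ± 73.5 CPM and 242 ± 83.4 CPM (SD, n = 3 each). The difference of 0.88 on the log2 scale (standard error 0.33, unadjusted p = 0.0306 from edgeR) was not called without UCP1 KI replicate 2 or 3, or without WT replicate 2, where it was 0.63. The lowest log2 fold change of the group was -0.24 for *TBK1*, a kinase of the cargo receptors. Its sign was not stable, at -0.73 to 0.11 over the 12 alternative settings.

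*TFEB* (ENSSSCG00000001621, chromosome 7, 36870240 to 36920887) was the steadiest of the 9 genes in the UCP1 KI pigs. It was at 43.6, 36.0 and 43.3 CPM in UCP1 KI replicates 1 to 3 and at 38.0, 47.9 and 48.3 CPM in WT replicates 1 to 3, with overlapping groups. Its log2 fold change of -0.13 had a 95% interval of -0.64 to 0.38, which keeps it under a 2-fold difference, and with library size only it was 0.14. *TFE3*, the gene of a related factor, was at 21.1, 19.7 and 19.5 CPM against 21.9, 21.3 and 17.6 CPM, giving a log2 fold change of -0.01. The log2 ratio of *TFEB* to *TFE3* was 1.05, 0.86 and 1.15 for UCP1 KI and 0.79, 1.17 and 1.46 for WT (exact permutation test, p = 0.6).

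**Figure D3:**
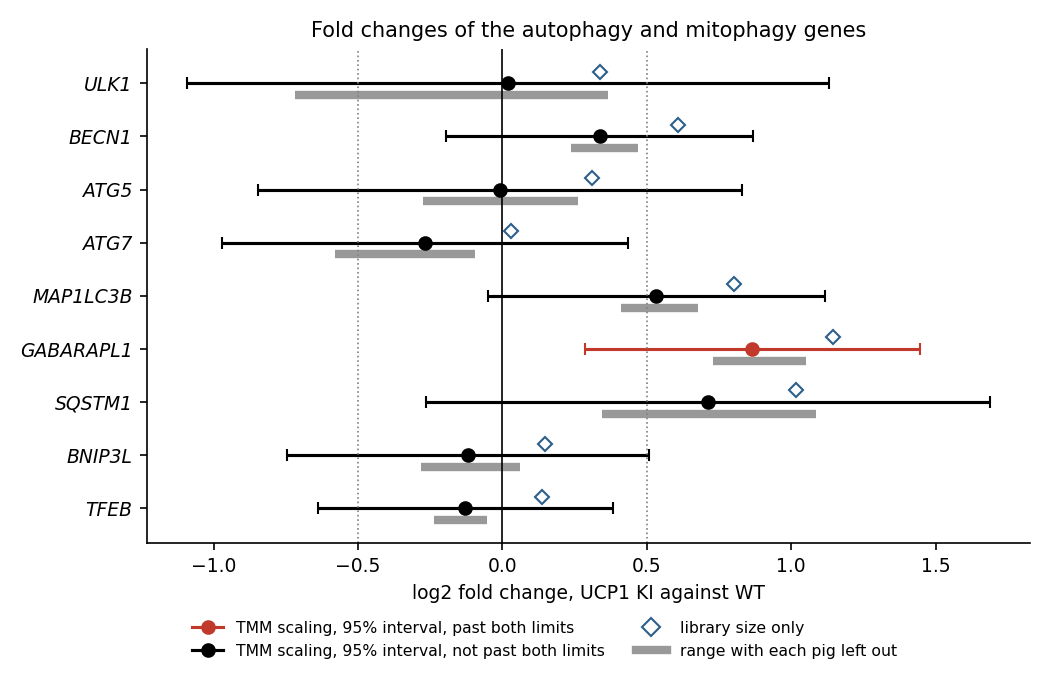
Log2 fold change of the 9 genes (horizontal axis, UCP1 KI against WT) with its 95% interval from edgeR. Open diamonds give the value with library size only and grey bars the range with each pig left out; dotted lines mark the fold change limit of 0.5. The interval of *GABARAPL1*, from 0.28 to 1.44, lies above 0, and the other 8 intervals include 0.

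Read across the pigs, 7 of the 9 genes, all but *ATG5* and *TFEB*, were lowest in UCP1 KI replicate 1 and highest in UCP1 KI replicate 3 within that group, while the most frequent order of the WT pigs held for 4 genes. UCP1 KI replicate 3 had the highest level among all 6 pigs for 6 of the 9 genes and the lowest of 0. UCP1 KI replicate 1 had the lowest level of 4 and the highest of 0. The share of all genes tested with the same orders is not given here, so these counts do not mark the 9 genes off from other genes. The median of the centred levels over the 9 genes, each gene being set to its own mean over the 6 pigs on the log2(CPM + 1) scale, was -0.09, 0.15 and 0.34 in UCP1 KI replicates 1 to 3. It was -0.19, 0.09 and 0.07 in WT replicates 1 to 3. UCP1 KI replicates 2 and 3 were above every WT pig and UCP1 KI replicate 1 was not.

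**Figure D4:**
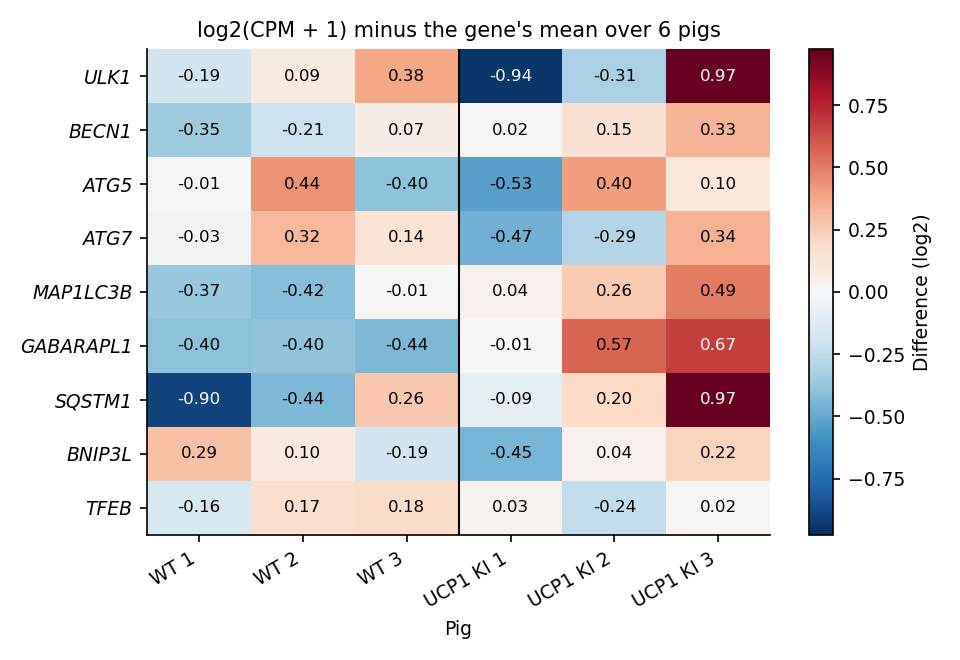
Level of the 9 genes in each pig on the log2(CPM + 1) scale, minus the gene's own mean over the 6 pigs, with WT pigs on the left and UCP1 KI pigs on the right (red higher, blue lower). UCP1 KI replicate 3 is above 0 in every row, from 0.02 for *TFEB*, which is close to 0, to 0.97 for both *ULK1* and *SQSTM1*. UCP1 KI replicate 1 ranges from -0.94 for *ULK1* to 0.04 for *MAP1LC3B*.

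The wider pathway was taken as 117 genes in 10 lists by role, of which 109 were matched and 107 tested. Beside the 9 genes, 98 others were tested, and 63 of them had a log2 fold change above 0. Of the 98, 7 were called as higher and 1 as lower, which is 8.16% and so near the share of all genes. The median log2 fold change of the 98 was 0.16, beside -0.02 over all genes tested, and 0.40 beside 0.24 with library size only. Together with *GABARAPL1* this made 9 called genes. This count fell to 4 when UCP1 KI replicate 2 was left out, to 3 when UCP1 KI replicate 3 was and to 4 when WT replicate 2 was, and rose to 20 when WT replicate 3 was. The share of all genes called in the same fits was 4.92%, 8.33%, 5.19% and 11.12%. Of the 9 genes, 3 were called with each pig left out, and these were *GABARAPL1*, *CALCOCO2* and *FNIP1*.

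The gene called as lower was *FNIP1*, a partner of folliculin in the control of mTORC1 and TFEB. It was at 8.12, 8.25 and 7.02 CPM in the UCP1 KI group and at 66.9, 38.6 and 9.88 CPM in the WT group. The UCP1 KI pigs were alike and all below the WT pigs, but WT replicate 3 was close to them. Its log2 fold change was -2.30 (standard error 0.60; edgeR, unadjusted p = 0.00558, adjusted p = 0.583), with an adjusted p between 0.0173 and 0.930 over the 12 alternative settings. It was -1.65 without WT replicate 1 and -2.76 without WT replicate 3. *FLCN*, the gene of folliculin, was at 7.70, 9.03 and 11.9 CPM against 21.9, 7.63 and 21.0 CPM and was not called (log2 fold change -0.82). Of the 18 genes of TFEB-type factors and nutrient regulators tested, 12 had a log2 fold change below 0 and the highest value was 0.42 for *RHEB*, the activator of mTORC1. With library size only, 12 were above 0.

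Of the proteins that supply membrane, 10 genes were tested and 0 were called in edgeR at the unadjusted limit. Their log2 fold changes ran from -0.32 for *WDR45*, a WIPI family member, to 0.60 for *ATG9A*, the lipid scramblase of autophagosome growth. Of the 13 fusion genes tested 0 were called at that limit, and the values ran from -0.16 for *VPS16* to 0.97 for *EPG5*, a tether between autophagosome and lysosome. *EPG5* had 31, 48 and 93 counts against 34, 23 and 20 counts, and its unadjusted p was 0.0774. Of the 16 genes of the lysosome membrane and its proton pump, *NPC1*, a cholesterol exporter of the lysosome, was called. It was at 11.0, 15.2 and 13.7 CPM against 9.70, 7.27 and 6.44 CPM, or 0.77 higher on the log2 scale (standard error 0.27, unadjusted p = 0.0218 from edgeR), and was called without UCP1 KI replicate 1 or WT replicate 1 and with no other pig left out. The lowest value of this list was -0.52 for *TMEM175*, a lysosomal ion channel.

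**Figure D5:**
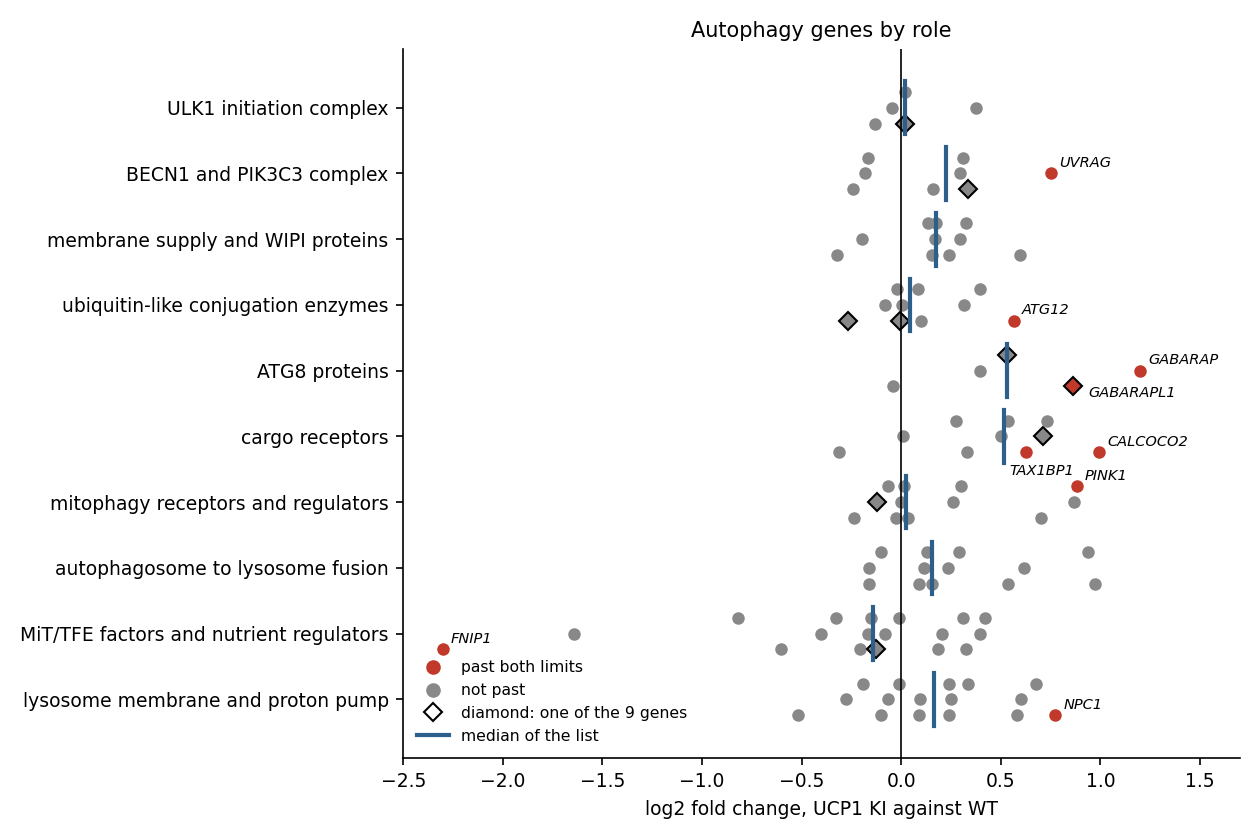
Log2 fold change (horizontal axis, UCP1 KI against WT) of the 107 autophagy genes tested, 1 row per role, with red for genes past both limits, grey for the others, outlined diamonds for the 9 genes and a blue bar for the median of each list. The ATG8 proteins, with a median of 0.53, and the cargo receptors, with 0.52, lie farthest to the right, and *FNIP1* at -2.30 is the lowest gene.

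To place the patterns, the tested genes most like a member were found by the root mean square difference between profiles over the 6 pigs, each centred on the log2(CPM + 1) scale. The genes nearest to *GABARAPL1* were *LRP10* (0.12), *TMEM205* (0.12) and *PRXL2C* (0.12), beside a root mean square of 0.46 for *GABARAPL1* itself. Those nearest to *MAP1LC3B* were *LYPLA2* (0.04), *PPP5C* (0.05) and *AIRIM* (0.05), beside 0.32. Those nearest to *SQSTM1* were *SCMH1* (0.08), *ME1* (0.12) and *CALCOCO1* (0.12), beside 0.59. The values describe likeness over 6 pigs and were not tested.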

How the data were processed

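Total RNA of longissimus dorsi from 3 UCP1 KI and 3 WT pigs had been sequenced as paired-end mRNA libraries on an Illumina HiSeq instrument. Per the submitters' processing notes and the paper's methods, reads were checked with FastQC 0.11.2, trimmed with Trimmomatic 0.36, mapped to Sscrofa11.1 with HISAT2 2.0 and quantified with StringTie 1.3.3b. What the authors deposited was a table of unnormalized read counts by Ensembl gene, with a column for each pig. The counting program, its use of strand and the annotation release are not given in the sources used here.

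The whole table was tested in edgeR 4.0.16 under R 4.3.3 (filterByExpr, TMM, genotype as the only term, quasi-likelihood F test, two-sided). The standard error is the size of the log2 fold change divided by the square root of F. Exact permutation tests used log2(CPM + 1), and ratios used counts + 0.5. A count of 3 corresponded to 0.0795 to 0.110 CPM, which covers counting error only. The pigs were labelled as separate replicates, and no source says whether they were littermates. Symbols came from an Ensembl name table that paired 14864 identifiers, and coordinates came from RefSeq for Sscrofa11.1, joined by symbol.

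The members and lists were chosen with earlier results of these data known. Named were the 9 genes, their partners in ratios, every called gene of the role lists and the largest and smallest fold change of each list, and for *GABARAPL1*, *MAP1LC3B* and *SQSTM1* the 3 most alike genes. *FLCN* and the single cell type markers were named after their values were seen. 1 gene of the lists is not reported here. The alternatives were scaling by median-of-ratios or by library size only, a looser filter (any count) and a stricter one (a minimum of 10 counts in each pig), DESeq2 1.42.0, the replicate number as a block and each pig left out.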

Additional observations from a re-analysis of the deposited data

How the results depend on the processing

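The number of the 9 genes called was 1 in edgeR, 3 with library size only, 2 with DESeq2, 2 with the replicate number as a block, and 1 to 3 with each pig left out, the 3 arising without WT replicate 3. The share of all genes called was 8.19% in edgeR, 8.39% with library size only, 9.77% with DESeq2 and 8.31% with the block. With each pig left out it was 4.92% to 11.12%. The number of called pathway genes was 9, and 15 with library size only, 3 to 20 with each pig left out (the 3 without UCP1 KI replicate 3, the 20 without WT replicate 3, and 4 without either UCP1 KI replicate 2 or WT replicate 2). Among all genes, 1097 were called, and 678 (without UCP1 KI replicate 2) to 1541 (without WT replicate 3) with each pig left out, with 718 without WT replicate 2. *MAP1LC3B* passed the limits with library size only (0.80) and with DESeq2 (0.53), and ranged from 0.41 to 0.68 with each pig left out. *SQSTM1* passed with library size only (1.02) and with the replicate block (0.72), and ranged from 0.34 to 1.09. Signs turned with library size only for *BNIP3L* (0.15), *ATG5* (0.31), *ATG7* (0.0293) and *TFEB* (0.14), for *ATG5* on all genes with a count (0.0171), and for *ULK1* with the block (-0.20). With each pig left out, the log2 fold change ran from -0.28 to 0.0625 for *BNIP3L*, from -0.72 to 0.36 for *ULK1* and from -0.27 to 0.26 for *ATG5*, the log2 ratio difference from -0.41 to 0.38 for *ULK1* to *ULK2* and from -0.30 to 0.037 for *TFEB* to *TFE3*. The library size scaling moves all genes, and the left-out fits have fewer pigs. The cause of the changed calls and signs was not tested.

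Pigs with the same replicate number deviated from their group means with correlations of 0.00383, 0.0943 and 0.283 over genes, so the numbers were not taken to pair the pigs, and UCP1 KI replicates 1 and 2 correlated better with a WT pig of another number. The block gave 1114 called genes in place of 1097, and 11 called pathway genes in place of 9. Under it *ATG12* (unadjusted p = 0.0563), *GABARAP* (0.0632) and *TAX1BP1* (0.0515) were not called by edgeR, while other pathway genes were gained. The ratio of *BNIP3* to *BNIP3L* was not run.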
